A study of Mus musculus with 10 samples.

Results

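The dermal macrophage genes described here are 10 genes chosen by symbol from the 47729 genes of the count table: Adgre1, Csf1r, Cd68, Mpeg1, Mrc1, Cd163, Folr2, Maf, Ly6c2 and Lyz2. Their messenger RNA was measured by RNA sequencing in whole skin from male C57BL/6 mice, with 5 animals carrying the age label 9 months and 5 the label 24 months. For the younger animals the series' own design text says 2 months instead, and no value used here settles which age is right. Neither group is described as treated or genetically altered, the sources used here do not give body site or hair cycle stage, and each library is taken as 1 mouse because each title carries its own number. Were any libraries to come from 1 animal, the p-values would describe the spread of libraries and not of mice. All 10 genes passed the filter on low counts, which left 17668 genes for testing.

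Macrophages of the dermis clear debris, take up matrix fragments and signal to fibroblasts, nerves and vessels. Most are long-lived resident cells that depend on the receptor encoded by Csf1r, and part of the population is replaced by blood monocytes that carry Ly6C. Adgre1 (F4/80), Csf1r, Cd68 and Mpeg1 (perforin-2) are read in most macrophages, whereas Mrc1 (CD206), Cd163, Folr2 and Maf mark resident, often perivascular cells. Ly6c2 encodes Ly6C of inflammatory monocytes, and Lyz2 encodes lysozyme M, which neutrophils and dendritic cells make too. None of the 10 is exclusive to macrophages: Langerhans cells use Csf1r, lymphatic endothelium uses Mrc1, and keratinocytes, T cells and other cells use Maf. In whole skin, fewer cells of a type and less RNA per cell cannot be told apart.

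Mpeg1 showed the clearest difference between the ages, and no gene of the 10 passed the test after adjustment. Mpeg1 was 35.1 ± 9.21 CPM (counts scaled to a common library size; SD, n = 5) at 9 months and 89.8 ± 52.8 CPM at 24 months, with a log2 fold change of 1.35 ± 0.35 (SE). Cd68 and Ly6c2 had log2 fold changes of 0.90 ± 0.33 and 2.75 ± 0.97, and the 7 others lay between -0.19 and 0.43. In edgeR's quasi-likelihood test, 3 of the 10 genes had an unadjusted p under 0.05 in the direction of 24 months, where 6.62% of all genes tested did, and 0 had one in the other direction, where 6.45% did. The count was 1, Mpeg1, without 24 months replicate 3 (5.78% of all genes), 6 without 24 months replicates 1 and 2 (4.96%) and 2 without 9 months replicates 4 and 5 (4.65%). With Benjamini-Hochberg adjustment over all genes the smallest adjusted p among the 10 was 0.163, for Mpeg1. The share of all genes with an adjusted p under 0.05 was 0.0% in either direction, and the smallest adjusted p of any gene was 0.0909. The same rule in DESeq2 called 2.17% of the genes it tested as higher and 2.42% as lower, and of the 10 genes it called Mpeg1 (log2 fold change 1.34, adjusted p = 0.0106). In 0 of the 10 genes did all older mice lie on one side of all younger mice; this held upwards for 1.66% and downwards for 1.23% of the genes tested.

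**Figure D1:**
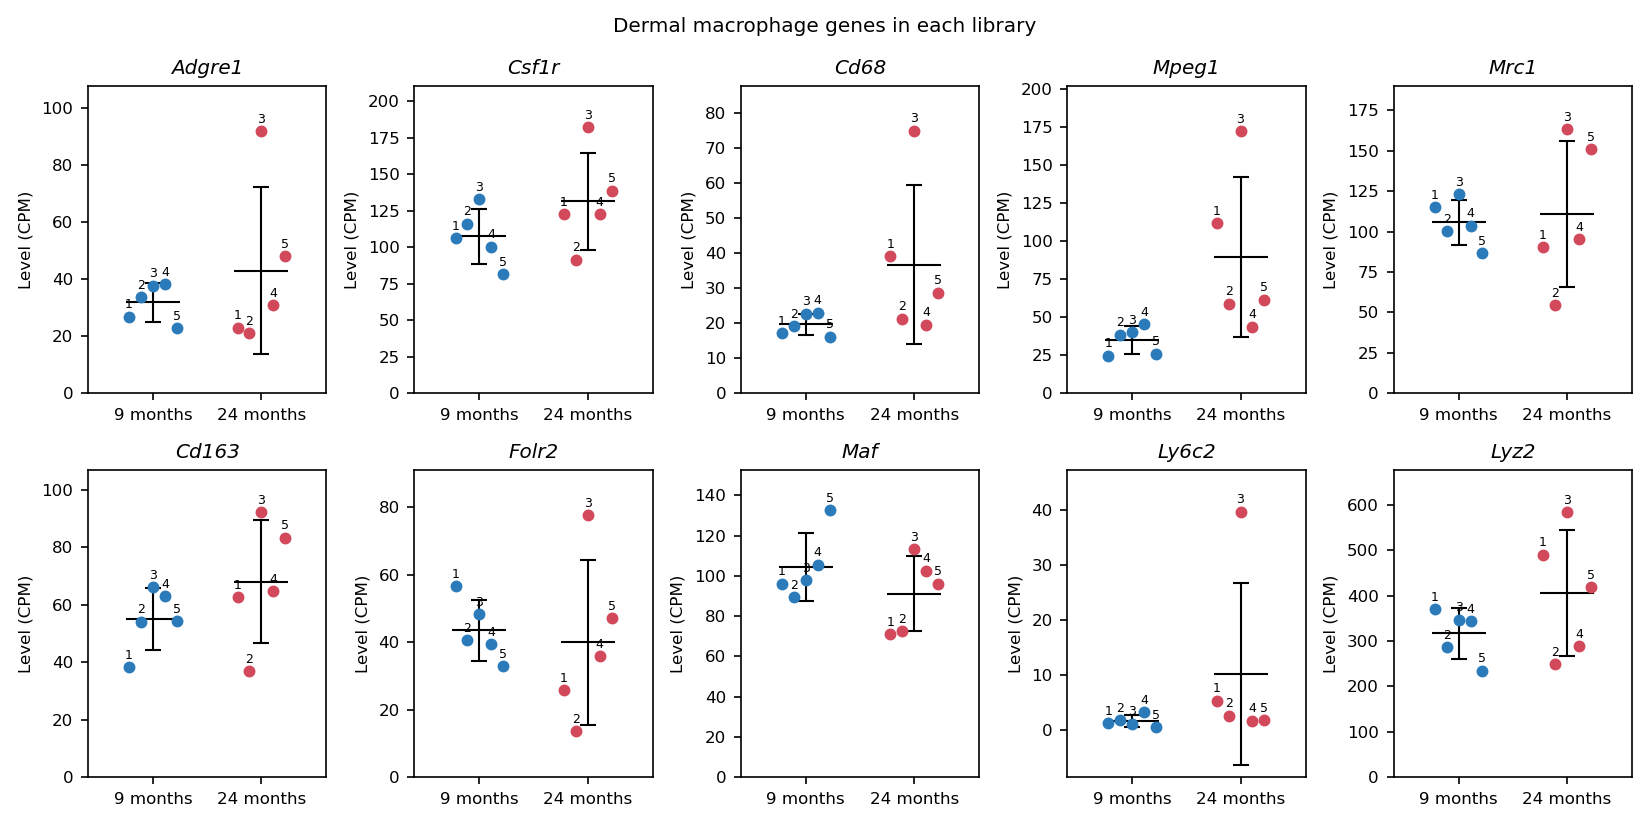
Level of each macrophage gene (vertical axis, CPM, each panel on its own scale) in the 5 mice labelled 9 months and the 5 labelled 24 months. Points are single libraries with their replicate number, bars are mean ± SD; replicate 3 of 24 months is the highest point in every panel except Maf.

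Libraries held 29.3 to 56.0 M counts (M for mega). Among the older mice, 3 libraries stood apart in ways that touch the macrophage genes. In 24 months replicate 3, 9 of the 10 genes were at their highest level of all 10 libraries, which held for 5.64% of the genes tested; the exception was Maf, which was highest in 9 months replicate 5. In 24 months replicate 2, 6 of the 10 were at their lowest level among the older mice, against 22.9% of all genes. The summed fibroblast markers were 1804 CPM in 24 months replicate 1 and 1215 CPM in replicate 2, and 4773 to 7076 CPM in the 3 other older mice. Growing-hair genes summed to 10350 CPM in 9 months replicate 4 and 30760 CPM in replicate 5, and to at most 364.3 CPM elsewhere. Keratinocyte markers were high in all libraries, at 8007 to 18490 CPM in sum. Values without some of these libraries are given beside the results.

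The promoter windows of the 3 genes with an unadjusted p under 0.05 are shown because macrophage genes are commonly bound by PU.1, the product of Spi1. Each window runs from 250 bases before to 50 bases after a RefSeq start in build GRCm38.p6, on the strand of the gene. Such a window was found for 7 of the 10 genes; Adgre1, Csf1r and Maf had no entry. Capitals mark the letters GAGGAA or their reverse complement TTCCTC, the core that PU.1 recognises, searched on both strands.

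Cd68 (chr11:69666121-69666420, minus strand): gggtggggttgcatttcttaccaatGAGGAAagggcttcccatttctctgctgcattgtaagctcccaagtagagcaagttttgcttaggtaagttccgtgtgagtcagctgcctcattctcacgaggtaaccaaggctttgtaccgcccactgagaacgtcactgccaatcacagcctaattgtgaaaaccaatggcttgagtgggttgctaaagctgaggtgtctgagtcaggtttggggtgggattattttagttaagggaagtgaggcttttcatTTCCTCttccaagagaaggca

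Mpeg1 (chr19:12460520-12460819, plus strand): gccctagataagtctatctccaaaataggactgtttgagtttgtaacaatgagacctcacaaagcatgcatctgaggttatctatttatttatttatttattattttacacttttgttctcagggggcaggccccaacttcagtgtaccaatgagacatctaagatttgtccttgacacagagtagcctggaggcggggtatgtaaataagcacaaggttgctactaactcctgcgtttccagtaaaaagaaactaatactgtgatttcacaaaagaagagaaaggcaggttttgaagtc

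Ly6c2 (chr15:75111922-75112221, minus strand, the first of its listed starts): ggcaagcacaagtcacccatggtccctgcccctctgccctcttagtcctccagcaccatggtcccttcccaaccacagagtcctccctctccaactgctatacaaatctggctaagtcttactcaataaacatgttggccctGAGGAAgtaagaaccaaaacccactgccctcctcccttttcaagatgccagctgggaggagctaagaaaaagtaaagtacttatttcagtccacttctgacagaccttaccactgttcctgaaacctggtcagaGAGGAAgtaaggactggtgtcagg

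Cd68 holds 2 such cores, Ly6c2 holds 2 and Mpeg1 holds 0, and Mrc1, not printed, holds 3. The core was found in 3 of the 7 genes and in 28.3% of 32851 promoter windows of the same length. Both cores of Ly6c2 stand within the longer letters GAGGAAGT, which 3.2% of the windows hold on either strand; the shorter core lies inside the longer one, so the counts overlap. A match is a description of letters, not of binding, and the absence of a match in the Mpeg1 window covers these 300 bases only.

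Mpeg1 (chromosome 19, bases 12460779 to 12465283 of GRCm38, plus strand) encodes a pore-forming protein that macrophages direct at engulfed bacteria. Its levels at 9 months were 24.8, 38.8, 40.2, 45.8 and 26.2 CPM in replicates 1 to 5, and at 24 months 112, 59.0, 172, 44.0 and 61.6 CPM. All older mice except replicate 4 lay above every younger mouse, and replicate 4 lay just under the highest of them. The unadjusted p was 0.00242 and the adjusted p 0.163 in edgeR, and a two-sided exact permutation test of the mean log2 CPM gave p = 0.0159, where the smallest p this design allows is 0.00794. Without 24 months replicate 3 the log2 fold change was 0.98 (edgeR unadjusted p = 0.00527, adjusted p = 0.287), and without 24 months replicates 1 and 2 it was 1.40. None of its 50-base windows occurs in the exons of another gene.

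Cd68 (chromosome 11, bases 69664213 to 69666153, minus strand) encodes macrosialin, a glycoprotein of late endosomes and lysosomes. It was at 17.2, 19.3, 22.7, 23.0 and 16.2 CPM at 9 months and at 39.2, 21.3, 75.0, 19.6 and 28.8 CPM at 24 months. Replicates 1, 3 and 5 of 24 months lay above every younger mouse, while replicates 2 and 4 lay inside the younger range. The log2 fold change of 0.90 ± 0.33 had an unadjusted p of 0.0191 and an adjusted p of 0.261 in edgeR, and the exact permutation test gave p = 0.0635. Without 24 months replicate 3 it was 0.47 (edgeR unadjusted p = 0.0574), and without 24 months replicates 1 and 2 it was 1.06.

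Adgre1 (chromosome 17, bases 57358691 to 57483527, plus strand) encodes F4/80, the surface receptor by which mouse macrophages are usually stained. Its levels were 26.8, 33.8, 37.8, 38.2 and 23.0 CPM at 9 months and 23.1, 21.2, 91.8, 30.9 and 48.1 CPM at 24 months. The older mice lay on both sides of the younger ones, with replicates 3 and 5 above them all and replicate 2 below them all. The log2 fold change was 0.43 ± 0.37 (edgeR adjusted p = 0.684), and it depended on which older mice were kept. It was -0.051 without 24 months replicate 3 and 0.83 without 24 months replicates 1 and 2 (edgeR unadjusted p = 0.0263, adjusted p = 0.515).

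Csf1r (ENSMUSG00000024621, chromosome 18) encodes the receptor for the growth factors CSF1 and IL-34. It was at 106, 116, 133, 101 and 81.9 CPM at 9 months and at 123, 91.6, 182, 123 and 139 CPM at 24 months. Replicates 3 and 5 of 24 months lay above the younger range and the others within it. The log2 fold change was 0.29 ± 0.19 (edgeR adjusted p = 0.553), 0.15 without 24 months replicate 3 and 0.46 without 24 months replicates 1 and 2 (edgeR unadjusted p = 0.0369, adjusted p = 0.552). Of the exonic bases of Csf1r, 15.1% overlap Hmgxb3 on the opposite strand, and the sources used here do not say whether counting used strand, so reads of the pair cannot be told apart there.

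Among the 4 genes of resident cells, none had an unadjusted p under 0.05 over all libraries. Their median log2 fold change was -0.026, beside -0.01 over all genes tested, and it was -0.20 without 24 months replicate 3 and 0.33 without 24 months replicates 1 and 2. Mrc1 (chromosome 2, bases 14229392 to 14332057, plus strand) encodes the mannose receptor, which takes up collagen fragments and glycoproteins. It was at 115, 100.2, 123, 104 and 86.5 CPM at 9 months and at 90.5, 54.4, 163, 95.1 and 151 CPM at 24 months. The older mice spread to both sides of the younger range, and the log2 fold change was 0.07 ± 0.26 (edgeR adjusted p = 0.947; exact permutation p = 0.937). It was -0.11 without 24 months replicate 3 and 0.37 without 24 months replicates 1 and 2.

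Folr2 (chromosome 7, bases 101839988 to 101857194, minus strand) encodes folate receptor beta, a marker of tissue-resident macrophages. Its levels were 56.6, 40.6, 48.3, 39.5 and 32.8 CPM at 9 months and 25.8, 13.8, 77.7, 35.8 and 47.1 CPM at 24 months. The lowest and the highest level of all 10 libraries were both in older mice, replicates 2 and 3. The log2 fold change was -0.12 ± 0.37 (edgeR adjusted p = 0.933), -0.51 without 24 months replicate 3 and 0.30 without 24 months replicates 1 and 2. Of the exonic bases of Folr2, 63.1% overlap Gm10602 on the opposite strand, which makes its count uncertain without a known strand setting.

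Cd163 (chromosome 6, bases 124304656 to 124330527, plus strand) encodes the scavenger receptor for haemoglobin bound to haptoglobin. It was at 38.4, 54.2, 66.1, 62.9 and 54.4 CPM at 9 months and at 62.6, 37.0, 92.2, 64.8 and 83.3 CPM at 24 months. Replicates 3 and 5 of 24 months lay above the younger range and replicate 2 below it. Its log2 fold change was 0.30 ± 0.23 (edgeR adjusted p = 0.644), 0.17 without 24 months replicate 3 and 0.54 without 24 months replicates 1 and 2 (edgeR unadjusted p = 0.0208, adjusted p = 0.511).

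Maf (chromosome 8, bases 115682942 to 115707794, minus strand) encodes the transcription factor c-MAF. It was at 96.1, 89.3, 97.7, 105 and 132 CPM at 9 months and at 71.2, 72.5, 113, 103 and 96.1 CPM at 24 months. Replicates 1 and 2 of 24 months lay below every younger mouse and the rest within their range. With all libraries the log2 fold change was -0.19 ± 0.16 (edgeR adjusted p = 0.684), and without 24 months replicates 1 and 2 it was -0.003. It was -0.054 without 9 months replicates 4 and 5, -0.012 with a growing-hair covariate and -0.28 without 24 months replicate 3. An antisense gene, Gm15655, shares 5.34% of its exonic bases.

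Ly6c2 (chromosome 15, bases 75108158 to 75111970, minus strand) is the monocyte gene of the set, and its difference between the ages rested on 1 library. Its levels were 1.20, 1.69, 1.10, 3.23 and 0.40 CPM at 9 months and 5.30, 2.57, 39.8, 1.63 and 1.71 CPM at 24 months. In 24 months replicate 3 it was 18.6 times the median of the other older mice and 7.52 times the next highest library. Replicates 2, 4 and 5 of 24 months lay within the younger range, and replicate 1 lay above it. Over all libraries the log2 fold change was 2.75 ± 0.97 (edgeR unadjusted p = 0.0167, adjusted p = 0.251; exact permutation p = 0.0794), and 0.88 without that library (edgeR unadjusted p = 0.137). Counts of Ly6c2 ranged from 23 to 1590 reads, and 13.9% of its 50-base windows also occur in its neighbour Ly6c1.

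Ly6c1, which endothelium and some T cells make, was higher than Ly6c2 in every library. It was at 163, 86.5, 85.3, 76.6 and 65.7 CPM at 9 months and at 109, 92.4, 137, 89.4 and 107 CPM at 24 months. No older mouse lay outside the younger range of Ly6c1, whose log2 fold change was 0.17 ± 0.23 (edgeR adjusted p = 0.820). The ratio of Ly6c2 to Ly6c1 was 0.291 in 24 months replicate 3 and at most 0.0484 in the 9 other libraries.

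Lyz2 (chromosome 10, bases 117277331 to 117282321, minus strand) was the most abundant of the 10 genes. It was at 370, 287, 347, 344 and 235 CPM at 9 months and at 490, 248, 584, 288 and 419 CPM at 24 months. Replicates 1, 3 and 5 of 24 months lay above every younger mouse and replicates 2 and 4 within their range. Between the ages the log2 fold change was 0.36 ± 0.24 (edgeR adjusted p = 0.573), and 0.19 without 24 months replicate 3. Lyz1, its neighbour and near-identical copy, encodes the lysozyme of Paneth cells, and 15.4% of the 50-base windows of Lyz2 occur in Lyz1, so their counts are uncertain against each other.

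The promoter windows of the pair are shown because the ratio of Lyz2 to Lyz1 differed between the ages. Capitals mark the bases that differ or stand unaligned between the windows; 249 of 302 aligned positions, or 82.5%, are identical.

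Lyz2 (chr10:117282223-117282522, minus strand): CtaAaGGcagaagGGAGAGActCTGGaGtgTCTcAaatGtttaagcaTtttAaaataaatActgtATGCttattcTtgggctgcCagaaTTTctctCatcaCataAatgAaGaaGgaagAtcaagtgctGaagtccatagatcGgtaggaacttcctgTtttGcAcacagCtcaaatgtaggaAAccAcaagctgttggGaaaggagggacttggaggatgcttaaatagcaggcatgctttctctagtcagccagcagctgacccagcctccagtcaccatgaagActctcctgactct

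Lyz1 (chr10:117292819-117293118, minus strand): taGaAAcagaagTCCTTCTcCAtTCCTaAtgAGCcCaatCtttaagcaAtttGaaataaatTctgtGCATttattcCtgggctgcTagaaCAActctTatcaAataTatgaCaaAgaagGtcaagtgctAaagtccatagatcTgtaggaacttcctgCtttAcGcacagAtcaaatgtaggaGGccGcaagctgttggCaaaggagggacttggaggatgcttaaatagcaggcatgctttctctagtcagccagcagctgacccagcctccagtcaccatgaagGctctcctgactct

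Lyz1 was at 48.5, 34.2, 39.8, 39.1 and 31.2 CPM at 9 months and at 51.2, 14.2, 28.0, 25.6 and 35.6 CPM at 24 months, with a log2 fold change of -0.32 ± 0.28 (edgeR adjusted p = 0.688). The ratio of Lyz2 to Lyz1 was 7.64, 8.39, 8.71, 8.81 and 7.52 at 9 months and 9.58, 17.5, 20.8, 11.3 and 11.8 at 24 months. Every older mouse lay above every younger mouse in this ratio, which held for 3.43% of the genes when divided by Lyz1. A ratio within a library does not depend on the scaling of libraries, and it shows unequal levels without saying which of the genes differs.

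**Figure D2:**
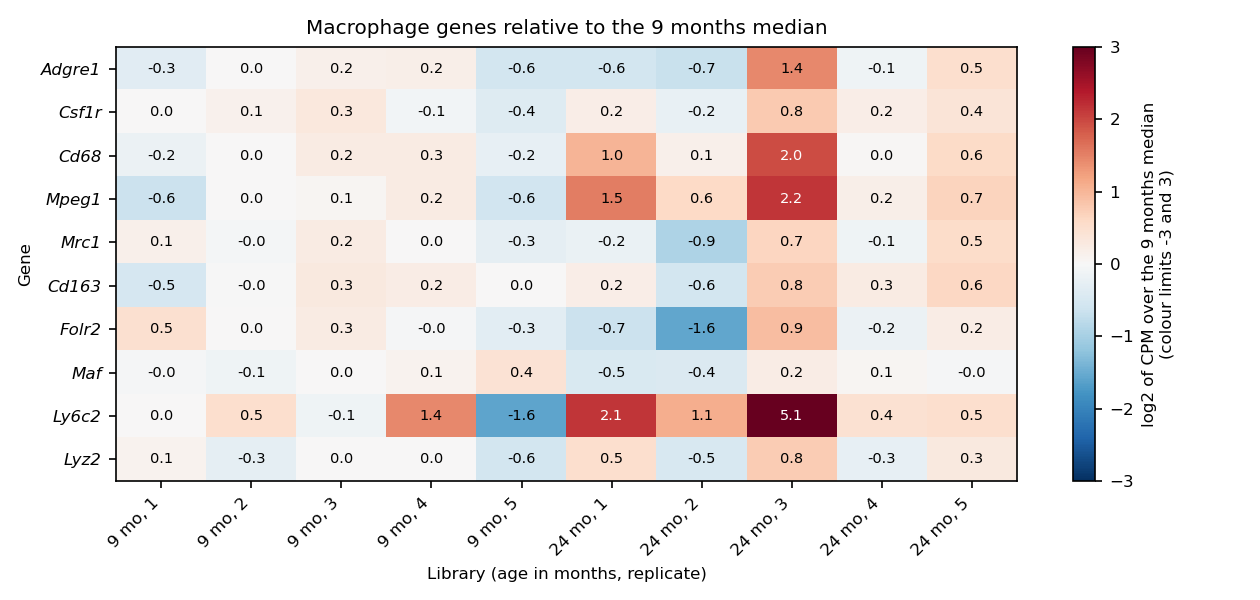
Each cell gives the log2 of the level of a macrophage gene (rows) in a library (columns) over the median of the 9 months libraries; red is higher and blue is lower. The column of 24 months replicate 3 is red for every gene, with Ly6c2 beyond the colour scale, and the column of replicate 2 holds the lowest Folr2 level of the 10 libraries.

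Levels per kilobase of exon allow the genes to be ordered. At 9 months Lyz2 was at 241 ± 41.9 CPM per kilobase (SD, n = 5), above all others, followed by Folr2 at 28.2 ± 5.90, Csf1r at 18.6 ± 3.28, Mrc1 at 16.6 ± 2.20 and Cd68 at 15.7 ± 2.48. Below them were Maf at 12.7 ± 2.04, Cd163 at 10.1 ± 1.97, Adgre1 at 9.86 ± 2.10 and Mpeg1 at 8.11 ± 2.12, and Ly6c2 was lowest at 0.557 ± 0.387. Lyz2, Folr2, Maf and Ly6c2 were separated from their neighbours in this order by more than the SD of either; Csf1r, Mrc1 and Cd68 were not separated from one another, nor were Cd163, Adgre1 and Mpeg1.

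At 24 months Lyz2, at 308 ± 106 CPM per kilobase, was again highest and Ly6c2, at 3.72 ± 6.07, lowest. Between them stood Cd68 at 29.3 ± 18.1, Folr2 at 25.9 ± 15.8, Csf1r at 22.8 ± 5.73, Mpeg1 at 20.7 ± 12.2, Mrc1 at 17.4 ± 7.12, Adgre1 at 13.3 ± 9.04, Cd163 at 12.5 ± 3.91 and Maf at 11.1 ± 2.26. No neighbours among these 8 differed by more than their SD. The coefficient of variation was larger at 24 months than at 9 months for 10 of the 10 genes, against 37.1% of all genes tested, at 13.3% to 69.6% in the younger and 20.5% to 163% in the older mice.

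**Figure D3:**
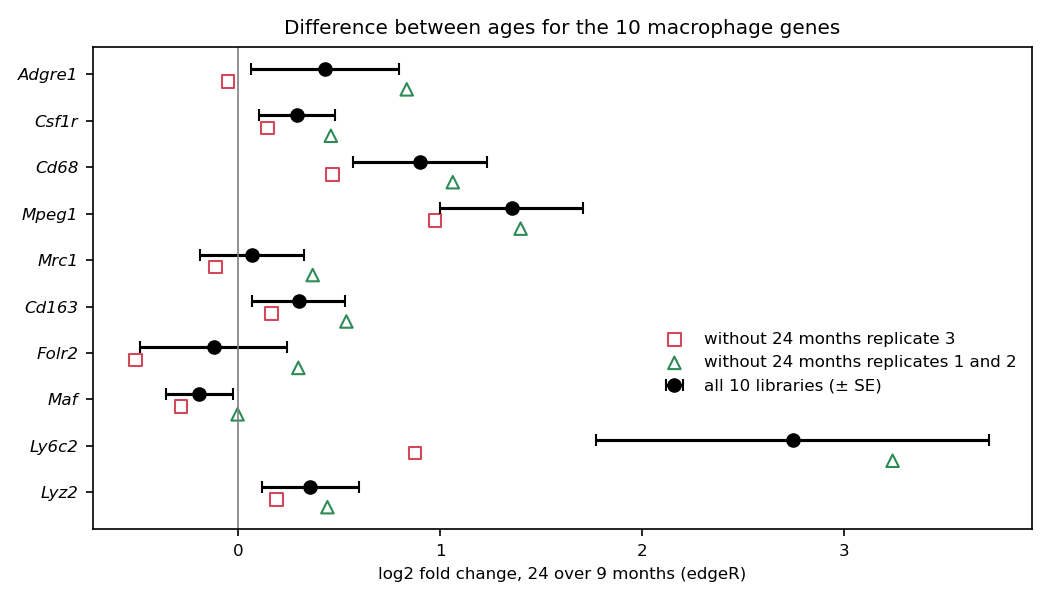
Log2 fold change of each macrophage gene, 24 over 9 months, from edgeR (horizontal axis). Filled circles with bars are the values of all 10 libraries ± SE, squares leave out 24 months replicate 3 and triangles leave out 24 months replicates 1 and 2; Mpeg1 stays between 0.98 and 1.40, while Adgre1, Mrc1 and Folr2 lie on both sides of 0.

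Set against one another within each library, the genes did not keep their proportions. Mpeg1 over Adgre1 was 0.925, 1.15, 1.06, 1.20 and 1.14 at 9 months and 4.86, 2.78, 1.88, 1.42 and 1.28 at 24 months. Every older mouse lay above every younger one, which 0.198% of the genes did when divided by Adgre1. Mpeg1 was in this way higher in every older mouse over 4 of the 9 other genes, namely Adgre1, Cd68, Folr2 and Lyz2. Over Cd68 its ratio was 1.44 to 2.01 at 9 months and 2.14 to 2.86 at 24 months, a separation shown by 0.0906% of genes divided by Cd68. The corresponding shares were 0.996% for Folr2 and 0.374% for Lyz2. These ratios were looked at after the level of Mpeg1 was known, so they describe its difference again on a scale that no library scaling touches. Cd68 over Adgre1 was 0.570 to 0.708 at 9 months, and at 24 months it was 1.70, 1.01, 0.817, 0.636 and 0.599, with replicates 1, 2 and 3 above the younger range.

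Ptprc encodes CD45, carried by nearly all leukocytes. It was at 42.0, 50.9, 50.1, 53.1 and 30.8 CPM at 9 months and at 105, 50.7, 136, 60.1 and 77.6 CPM at 24 months (log2 fold change 0.92 ± 0.26, edgeR adjusted p = 0.164). Divided by Ptprc, 4 of the 10 macrophage genes, Mrc1, Folr2, Maf and Lyz2, were below every younger mouse in every older mouse, and 17.9% of all genes were. Mrc1 over Ptprc was 2.74, 1.97, 2.45, 1.95 and 2.81 at 9 months and 0.862, 1.07, 1.20, 1.58 and 1.94 at 24 months, where the nearest mice almost met. Folr2 over Ptprc was 0.744 to 1.35 at 9 months and 0.245 to 0.608 at 24 months. Adgre1 over Ptprc was below the younger range in all older mice but replicate 3. Mpeg1 was the one gene of the 10 whose ratio to Ptprc lay above the younger range in 3 older mice and below it in 0.

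**Figure D4:**
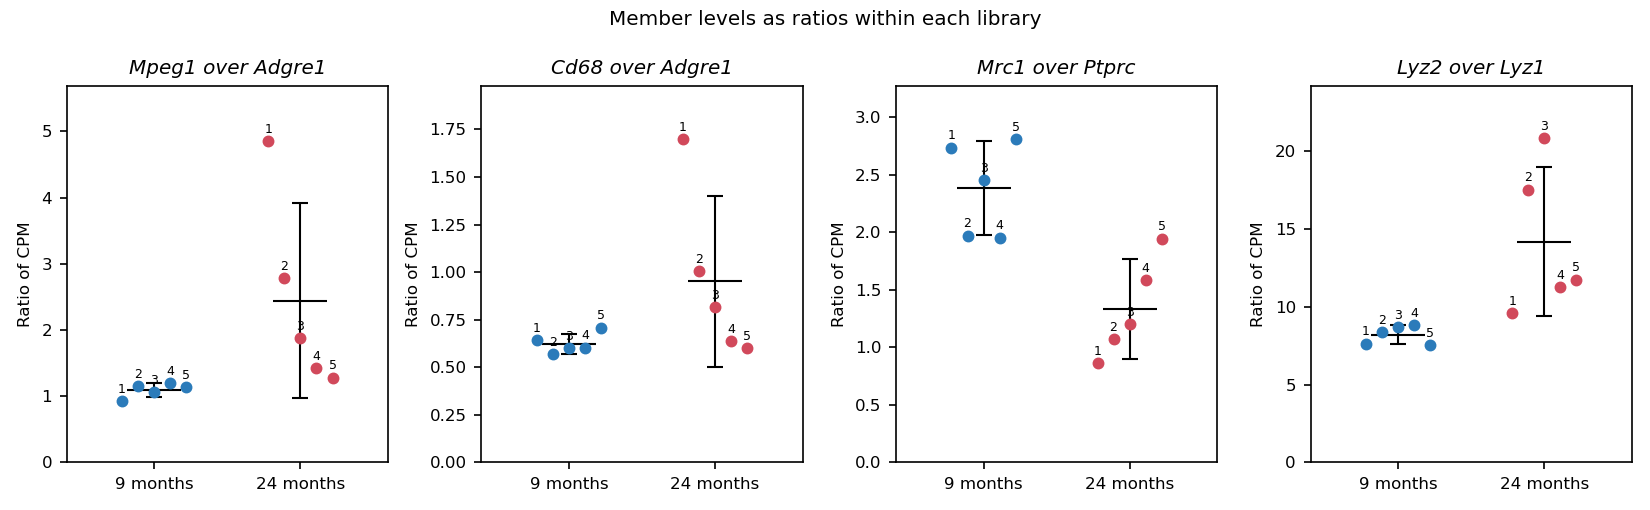
Ratios of CPM within each library for Mpeg1 and Cd68 over Adgre1, Mrc1 over Ptprc and Lyz2 over Lyz1 (vertical axes), by age label. Points are libraries with their replicate number and bars are mean ± SD; Mpeg1 over Adgre1 reaches 1.20 in the younger mice and starts at 1.28 in the older ones, and Lyz2 over Lyz1 separates the ages at 8.81 and 9.58.

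Within an age group the genes varied together to different degrees. Over the 10 libraries, after the mean of each age was taken out of log2 CPM, the Pearson correlation was 0.96 between Mrc1 and Folr2, 0.95 between Cd68 and Mpeg1 and 0.90 between Mpeg1 and Ly6c2. Mpeg1 and Maf had a correlation of 0.01. Without 24 months replicate 3, over 9 libraries, these values were 0.95, 0.92, 0.78 and -0.58. All of the points share their library and its scaling with each other, so the values are a description. Mpeg1 varied with Cd68 more than with Mrc1 or Folr2: without that library it had a correlation of 0.06 with Mrc1 and -0.15 with Folr2.

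Among 15042 genes, those most like the mean profile of Adgre1, Csf1r, Cd68 and Mpeg1 were Tifab (r = 0.98), Itgb2 (r = 0.98), Cd84 (r = 0.97), Lrrc25 (r = 0.95) and Fcgr3 (r = 0.95). Itgb2 is the beta chain of the leukocyte integrins, Cd84 a receptor of the SLAM family and Fcgr3 a low-affinity receptor for immunoglobulin G. The genes most like the mean profile of Mrc1, Cd163, Folr2 and Maf were Sparc (r = 0.97), Srpx (r = 0.96), Dse (r = 0.96), Col5a2 (r = 0.96) and Fam114a1 (r = 0.95). Sparc and Col5a2 encode proteins of the dermal matrix and are best known from fibroblasts. Leaving out 24 months replicate 3 left the first 5 at 0.83 to 0.97 and the second 5 at 0.93 to 0.96. The likeness without 24 months replicates 1 and 2 was not tested. In those mice Mrc1, Cd163, Folr2 and Maf summed to 250 and 178 CPM, against 298 to 447 CPM in the other older mice. The summed fibroblast markers were also lowest there, at 1804 and 1215 CPM, so these mice may carry much of the second likeness.

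The wider lists place the 10 genes among other macrophage genes. All counts are of genes with an unadjusted p under 0.05 in edgeR, where 6.62% of all genes were higher and 6.45% lower at 24 months, and no gene of any list passed after adjustment. Where a count is followed by 3 others, these are the counts without 24 months replicate 3, without 24 months replicates 1 and 2 and without 9 months replicates 4 and 5, in that order. Of 8 tested genes for CSF1R ligands and signalling, 4 were higher (then 3, 6 and 3) and 0 lower, with a median log2 fold change of 0.52. Of the ligands, Csf1 was at 69.9 ± 12.8 CPM at 9 months and 92.1 ± 35.9 CPM at 24 months (0.40 ± 0.24, adjusted p = 0.534), and Il34, the keratinocyte ligand that Langerhans cells need, had a value of -0.04 ± 0.28. The higher genes included Csf2rb, the shared receptor chain for GM-CSF and related cytokines (0.91 ± 0.18), and the phosphatase Inpp5d (0.84 ± 0.21). The adaptor Tyrobp was another (0.60 ± 0.27, and 0.36 without 24 months replicate 3). In 3 of the 8 genes, Csf2rb and Inpp5d among them, every older mouse lay above every younger mouse. This held for 1.66% of all genes tested.

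Of 10 macrophage transcription factors, 2 were higher (then 1, 2 and 1) and 0 lower, with a median of 0.19. They were Irf8, a factor of monocytes, dendritic cells and B cells (0.76 ± 0.23), and Spi1, which encodes PU.1 (0.67 ± 0.28). Spi1 was at 17.7, 14.8, 14.7, 13.3 and 8.41 CPM at 9 months and at 25.2, 11.5, 35.0, 16.8 and 20.9 CPM at 24 months, with replicates 1, 3 and 5 above the younger mice. The value for Spi1 was 0.44 without 24 months replicate 3 and 0.47 without 9 months replicates 4 and 5, with an unadjusted p above 0.05 in both.

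Of 14 other pan-macrophage genes, 5 were higher (then 3, 6 and 1) and 0 lower, with a median of 0.53, and 0.27 without 24 months replicate 3. They included Ms4a7 (0.89 ± 0.28), the protease Ctss (0.99 ± 0.35) and the Fc receptors Fcgr3 (0.60 ± 0.21) and Fcgr1 (1.43 ± 0.55). Without that library Ms4a7 had a value of 0.56, Ctss 0.57 and Fcgr1 0.52. In 12 of these 14 genes the highest library was again 24 months replicate 3. Of 18 other genes of resident macrophages, 3 were higher (then 1, 3 and 0) and 0 lower, with a median of 0.07. By sign alone 11 were positive and 7 negative. The higher ones were the transporter Slco2b1 (0.44 ± 0.14), the complement receptor Vsig4 (0.98 ± 0.42) and the lectin Clec10a (0.42 ± 0.19). Without 9 months replicates 4 and 5 Clec10a was at 0.23. With a growing-hair covariate Slco2b1, Vsig4 and Clec10a were at 0.29, 0.60 and 0.08, with an edgeR unadjusted p above 0.05 in each. Lyve1, a hyaluronan receptor of perivascular macrophages and lymphatic vessels, had a log2 fold change of 0.16 ± 0.33 and Timd4, a receptor for dying cells, one of 0.33 ± 0.31.

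Of 14 monocyte genes, 6 were higher (then 6, 8 and 6) and 1 lower (then 1, 0 and 2), with a median of 0.70 that was -0.17 without 24 months replicate 3. By sign alone 8 were positive and 6 negative. Chil3 (3.71 ± 0.83), Plac8 (1.47 ± 0.34) and Spn (1.19 ± 0.24) were among the higher ones. Chil3 was near the floor, at 0.033 to 0.526 CPM at 9 months and 0.441 to 9.12 CPM at 24 months, and its lowest count was 1 read. Ccr2, the receptor that draws monocytes out of marrow, was at 40.0, 27.2, 27.6, 37.0 and 20.1 CPM at 9 months and at 29.5, 16.3, 116, 21.8 and 31.2 CPM at 24 months. As with Ly6c2, 24 months replicate 3 stood far above the rest, and the value of Ccr2 went from 0.50 ± 0.47 to -0.30 without it. Plac8 and Spn are also made by lymphocytes, and Chil3 by neutrophils.

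Genes of phagocyte function were read in 5 further lists. Of 15 phagosome and lysosome genes 4 were higher (then 3, 4 and 3) and 1 lower (then 1, 0 and 0), with a median of 0.12; Ncf1 (1.03 ± 0.29), Ncf4 (0.92 ± 0.30) and Cybb (1.05 ± 0.36) encode parts of the phagocyte oxidase, and the lower one was the protease Ctsl (-0.48 ± 0.17). Of 10 genes of lipid-handling macrophages 0 passed in either direction. Of 8 genes of alternative activation 2 were higher, Pdcd1lg2 (1.38 ± 0.36) and Il4ra (0.51 ± 0.18), and 0 lower, with a median of -0.002. By sign alone 4 were positive and 4 negative, the latter including Retnla (-0.675 ± 0.471) and Mmp13 (-1.0 ± 0.788). Retnla had means of 517 CPM at 9 months and 324 CPM at 24 months. Pdcd1lg2 was near the floor, with means of 0.27 and 0.69 CPM and 7 to 43 reads. Of 9 genes of inflammatory activation 6 were higher (then 6, 5 and 4) and 0 lower, with a median of 1.25, among them Fcgr4 (3.09 ± 0.61), Il1b (1.40 ± 0.42), Cxcl9 (2.01 ± 0.63) and Cd80 (1.08 ± 0.36). The value of Cxcl9 was 0.45 without 24 months replicates 1 and 2. Of 8 macrophage chemokines 6 were higher (then 3, 8 and 3) and 0 lower, with a median of 1.85. Ccl8 (1.21 ± 0.24) lay at 58.5 to 81.4 CPM at 9 months and 82.3 to 232 CPM at 24 months. Ccl3, Ccl4 and Ccl12 were near the floor, with 9 months means of 0.17, 0.30 and 0.62 CPM.

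**Figure D5:**
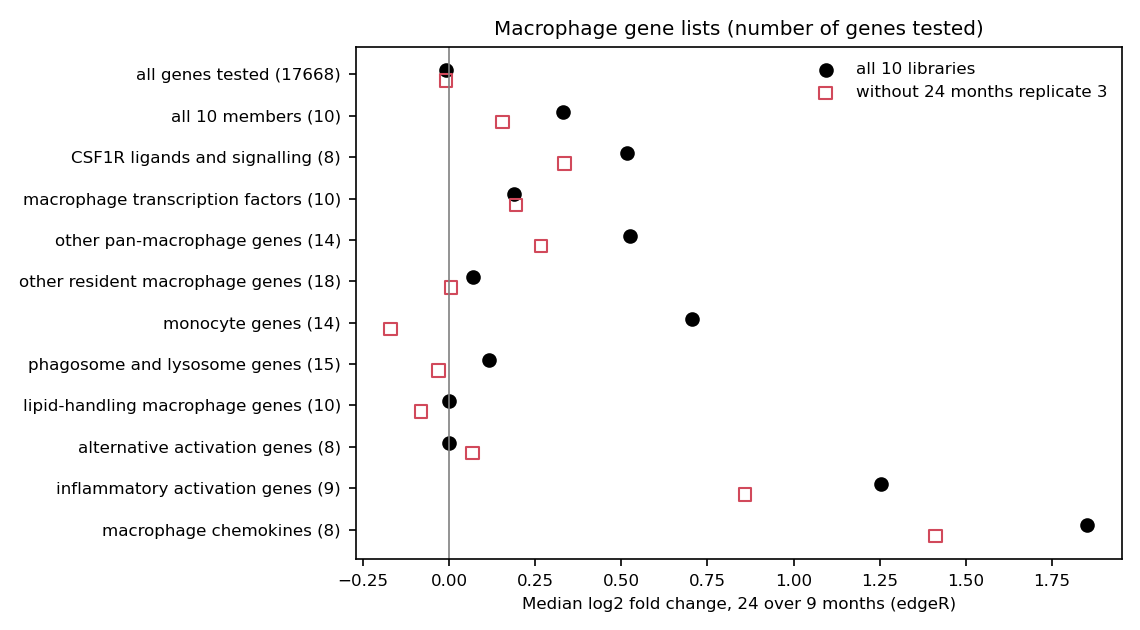
Median log2 fold change, 24 over 9 months (horizontal axis, edgeR), of each list of macrophage genes, with the number of genes tested in brackets. Filled circles use all 10 libraries and squares leave out 24 months replicate 3; the 10 macrophage genes have a median of 0.33 with it and 0.16 without it, and the monocyte genes 0.70 and -0.17.

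Other leukocytes share many of these genes, and their marker lists were read in the same fit. Of 8 tested neutrophil markers 7 were higher, with sums of 34.5 to 47.2 CPM at 9 months and 55.5 to 140 CPM at 24 months; S100a9 was at 2.06 to 5.71 CPM and 10.9 to 41.6 CPM, and Ly6g was at 0 in 5 libraries and at most 0.289 CPM. Of 9 B cell and plasma cell markers 8 were higher, with sums of 34.7 to 145 CPM and 105 to 829 CPM, the latter in 24 months replicate 1. Of 10 T cell markers 4 were higher (then 4, 2 and 3), with sums of 30.5 to 88.8 CPM and 62.0 to 104 CPM. Of 12 Langerhans cell and dendritic cell markers 3 were higher (then 2, 3 and 2), with sums of 184 to 240 CPM and 191 to 242 CPM. Mpeg1, Lyz2, Ly6c2 and Ptprc are made by one or more of these cell types, and the part of those cells in the values of the 10 genes was not tested.

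In 24 months replicate 3 the 10 macrophage genes were at 2.14 times the median of the other older mice, as a median over the genes. By the same measure the monocyte genes were at 2.28 times, the other pan-macrophage genes at 2.05 times, the neutrophil markers at 1.95 times, the fibroblast markers at 1.75 times and the Langerhans cell and dendritic cell markers at 1.32 times. The T cell markers were at 0.762 times and the B cell and plasma cell markers at 0.824 times. Over all genes tested the value was 0.998. For the fibroblast markers the median of the other older mice includes replicates 1 and 2, whose sums were 1804 and 1215 CPM. Replicate 3 summed to 6248 CPM, between replicate 4 (4773 CPM) and replicate 5 (7076 CPM). It lay below every 9 months library (8101 to 11730 CPM). Fibroblast markers had 3 of 7 lower at 24 months, among them Col1a1 (-1.75 ± 0.64, and -1.11 without 24 months replicates 1 and 2), at 114 and 111 CPM in replicates 1 and 2 of 24 months and 974 to 3216 CPM in the 8 other libraries. In those same 2 mice 5 of the 10 macrophage genes, Adgre1, Mrc1, Cd163, Folr2 and Maf, had their lowest level of the 10 libraries, and 24.4% of all genes did. Of 7 endothelial markers tested 0 passed, and Ccl21a was at 0 in all 10 libraries. How multiply matching reads were handled is not given, so this 0 need not mean absent RNA.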

How the data were processed

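The deposited count table holds raw read counts, whole numbers per Ensembl gene. The submitters' processing notes list featureCounts 1.4.6-p4, STAR 2.4.1d and CASAVA 1.7 and the build GRCm38; the sources used here give neither their roles nor how strand and multiply matching reads were handled. The authors also deposited RPKM values, which were checked only: over 8455 genes the ratio of count to RPKM, after division by the library's own total, varied between libraries with an SD of 0.458 on the log2 scale, so these values were not used for any result. Symbols were matched by identifier for 47224 of 47729 genes, and coordinates come from a GENCODE annotation of GRCm38.

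Libraries held 29.3 to 56.0 M counts (M for mega). After filterByExpr and TMM scaling, genes were tested with the robust quasi-likelihood F test of edgeR 4.0.16 in R 4.3.3, 24 against 9 months without covariates, and p-values were adjusted over all 17668 genes by the Benjamini-Hochberg method. The SE was derived from the F statistic. Exact permutation tests were two-sided on mean log2 CPM (prior count 2). Replicates were numbered 1 to 5 in listing order. The procedure was tested on simulated counts that had the same dispersion for all genes. That test does not cover single libraries that stand apart, as some do here.

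The 10 genes and all gene lists were chosen with earlier results of these data known. Besides the 10, up to 4 genes with the smallest p were named from each list, and Ptprc, Lyz1, Ly6c1, Csf1, Il34, Spi1, Ccr2, Lyve1, Timd4 and S100a9 always; Ms4a4c was named after its values were seen. Some genes that the rule names are not reported here. Pattern likeness ranked genes with a mean of at least 1 CPM. Alternatives were other scaling, other filters, DESeq2 1.42.0, limma-voom (limma 3.58.1) with and without quality weights, a growing-hair covariate and leaving out libraries. Promoter windows are from RefSeq.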

Additional observations from a re-analysis of the deposited data

Results flagged for a closer look

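In 8 of 86 groups of 5 libraries, counting levels and ratios of named genes, 1 library stood apart from the other 4 by Dixon's criterion; chance flags about 1 group in 20. Of these, 5 concern 24 months replicate 3. There Ly6c2 was at 39.8 CPM, Ccr2 at 116 CPM, Fcgr1 at 33.8 CPM and Ms4a4c, a gene of Ly6C-positive monocytes, at 29.5 CPM, and the ratio of Ly6c2 to Ptprc was 0.293. In the other older mice Ms4a4c was at 1.19 to 2.38 CPM. Ms4a4c was named after its values were seen, and Ly6c2 enters both as a level and as a ratio. All groups also share the same libraries, so the number of flags cannot be judged against the chance rate. The level of Ms4a1, the B cell gene for CD20, was 93.0 CPM in 24 months replicate 1. At 9 months, Ly6c1 was at 163 CPM in replicate 1, and the ratio of Maf to Ptprc was 4.30 in replicate 5, the library with the highest growing-hair genes.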

How the results depend on the processing

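For the 10 macrophage genes, 190 of 200 values under 20 alternatives kept the direction and the side of the threshold, 9 turned direction and 1, Mpeg1 in DESeq2 (adjusted p = 0.0106), passed it. For the other named genes 839 of 874 did so, 14 turned and 21 passed. No gene passed the threshold in the main fit, so these counts speak mostly of direction and not of size. For example, Ly6c2 at 0.88 without 24 months replicate 3 counts as kept, beside 2.75 over all libraries. Genes called higher numbered 433 in DESeq2, 3 with quality weights and 1 with no filter, and 0 to 8 with 1 library left out; genes called lower numbered 483 in DESeq2 and 1 each with the growing-hair covariate and without 9 months replicates 4 and 5. Why DESeq2 made more calls was not tested. The log2 fold change of Mrc1 was -0.035 in limma-voom, -0.13 with the covariate and -0.026 without 9 months replicates 4 and 5. Under those last settings Ly6c1 was at -0.26 and -0.067, and Fabp5 at 0.17 and 0.029. In the main fit Ly6c1 was at 0.17 and Fabp5 at -0.50. Without 24 months replicates 1 and 2 Folr2 was at 0.30 and Cd36 at -0.038, beside -0.12 and 0.63 in the main fit. Il34 was at 0.026 with no scaling and 0.053 in limma-voom, where Lyve1 was at -0.016. The value of Il34 lay furthest from 0 with the growing-hair covariate, at -0.607 (edgeR unadjusted p = 0.0216). It was -0.387 without 9 months replicates 4 and 5 (edgeR unadjusted p = 0.0866). With 1 library left out, Adgre1 ranged from -0.051 to 0.60, Mrc1 from -0.11 to 0.24, Folr2 from -0.51 to 0.10, Il34 from -0.22 to 0.16, Ccr2 from -0.30 to 0.71 and Lyve1 from -0.034 to 0.40. The causes were not tested. No paired analysis was possible because the titles share no replicate numbers between the ages. The lowest count of the 10 genes in any library was 23 reads, for Ly6c2, and whether depth limited the calls was not tested.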
